A study of Mus musculus with 60 samples.

Results

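The 33 genes described here encode the blood coagulation and fibrinolysis system of the mouse, from fibrinogen and the clotting factors to the receptors of the vessel wall and the plasminogen activators. They were listed by gene symbol, not by a cut on measured values, but with earlier results of these data known. All 33 were found among the 54532 genes of a table of RNA sequencing read counts. The table holds 60 libraries, 4 replicates from each of 15 tissues of female C57BL6/J mice aged 6 weeks, with no genetic change or treatment named. Before the organs were taken, the mice were anaesthetised and perfused through the heart with buffered saline containing EDTA. The tissues were liver, kidney, small intestine, colon, lung, heart, skin, brain, female reproductive tract, thymus, spleen, bone marrow, the mesenteric and the inguinal lymph nodes, and a blood sample. The blood sample is labelled whole blood as a tissue but mononuclear cells in its titles, and it is called blood here. The question taken up was where the messenger RNA of each gene lay: in liver, or in vessels, blood cells and other tissues.

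Coagulation is a chain of proteolytic activations. Tissue factor on cells outside the vessel binds factor VII, the complex activates factors IX and X, and factor X with its cofactor factor V turns prothrombin into thrombin, which cuts fibrinogen to fibrin. Thrombin also feeds back through factors V, VIII and XI, and factor XIII cross-links the clot. Antithrombin, protein C with protein S, thrombomodulin and tissue factor pathway inhibitor hold the chain in check, and plasmin, made from plasminogen by its activators, dissolves fibrin. Most plasma factors are known as hepatocyte products, whereas factor VIII and von Willebrand factor are known as products of endothelium, the latter also of megakaryocytes, the platelet-forming cells.

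Libraries held 353605 to 5211133 counted reads, with a median of 2649668. Levels are given as CPM, read counts scaled to a common library total, after TMM scaling, which corrects library totals for a few very abundant genes. Liver libraries had a mean TMM factor of 0.504, which raises liver CPM above the values that plain library totals would give, and the median log2 difference of all genes between liver and the other tissues moved from -0.25 with TMM to -1.225 with plain totals. Lists of cell type markers were summed as a check of the tissue labels: hepatocyte, kidney tubule, lung epithelium, cardiomyocyte, neuron, keratinocyte, enterocyte, thymocyte and erythroid markers each summed highest in liver, kidney, lung, heart, brain, skin, small intestine, thymus and bone marrow respectively. The astrocyte list was an exception, with a mean sum of 1444 CPM in liver and 735 CPM in brain. Of its genes only Aldh1l1 was high in liver, and Gfap, Aqp4 and Slc1a3 were higher in brain. The sinusoidal endothelial and adipocyte lists summed highest in mesenteric lymph node, with means of 575 and 5730 CPM. Liver came second for the sinusoidal list, at 332 CPM. A total of 6 libraries stood apart from their tissue and are weighed by leaving them out: female reproductive tract replicates 3 and 4, brain replicate 3, liver replicate 4, heart replicate 4 and blood replicate 1. In bulk RNA, fewer cells of a type and less RNA per cell cannot be told apart.

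Of the 33 genes, 22 had their highest mean CPM in liver (21 of the 32 with enough reads to be tested), against 10% of the 18562 genes tested. For 15 of them at least 90% of the summed means of the 15 tissues lay in liver, which held for 1.16% of all genes tested. The other 11 were highest in mesenteric lymph node (F8), inguinal lymph node (Procr), blood (Vwf, Plaur), bone marrow (F13a1), lung (Thbd, Pros1), heart (Tfpi), skin (F3), kidney (Plau) and female reproductive tract (Plat). For 25 genes every library of the highest tissue lay above every library of all other tissues, compared with 48.8% of all genes tested. The pattern is therefore a large hepatic group, a few genes shared between liver and one other organ, and a varied group whose RNA was mainly outside liver.

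**Figure D1:**
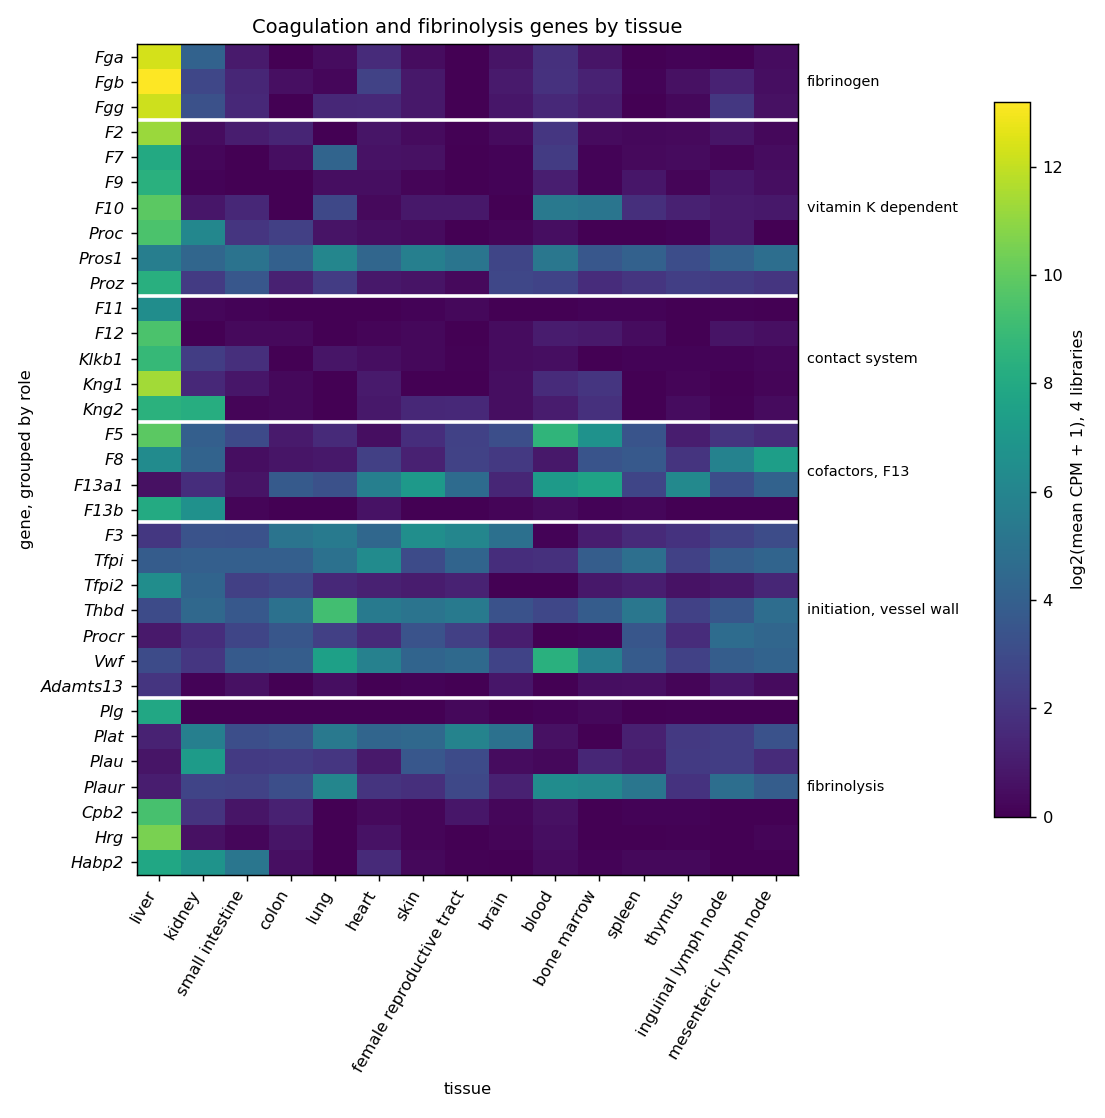
Mean level of each of the 33 genes (rows, grouped by role) in each of the 15 tissues (columns), as the log2 of mean CPM plus 1 over 4 libraries. Colours should be read along a row, since levels of different genes are not scaled to transcript length. The liver column is bright for fibrinogen, most vitamin K dependent factors and the contact system, whereas Thbd is brightest in lung, Vwf in blood and F8 in mesenteric lymph node.

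Each tissue was tested against the equally weighted log mean of the other 14 in one edgeR quasi-likelihood fit of all 60 libraries, with Benjamini-Hochberg adjustment over all genes, and a call required an adjusted p under 0.05 together with a log2 difference beyond 1. Adamts13 alone had too few reads. In liver 23 of the 32 tested genes were called higher, against 18.4% of all genes, and 6 were called lower, against 16.7% of all genes. The 6 lower ones were F3, F13a1, Plau, Plaur, Thbd and Vwf, which are genes of the vessel wall, of blood cells and of urokinase activity. With tissue means compared directly and unread genes placed at 3 reads, the median log2 ratio of liver to the other 14 tissues was 5.84 over the 32 genes and -0.65 over all genes tested, and the fitted medians were 9.31 and -0.25.

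In kidney 16 of the 32 were called higher, against 21.8% of all genes, and 12 of these had a mean of at least 5 CPM there, the threshold used here for naming a level. In heart 12 were called higher (7 at 5 CPM or more), against 20.7% of all genes. In blood 11 were called higher (5 at 5 CPM or more), against 18.1%, and in bone marrow 9 (5 at 5 CPM or more), against 17.6%. In lung 9 were called higher, all with 5 CPM or more, against 16.8%. Skin had 7 (6 at 5 CPM or more) against 18.4%, small intestine 6 (3) against 19.8%, colon 6 (3) against 17.6% and female reproductive tract 6 (4) against 23.1%. Inguinal lymph node had 5 (3) against 17.1%, spleen 5 (4) against 17.8%, mesenteric lymph node 2 (F8 and Procr) against 17.2%, brain 2 (F3 and Plat) against 27.7% and thymus 1 (F13a1) against 18.9%. The count for heart was 7 without heart replicate 4 and 1 with plain library totals, and the count for female reproductive tract was 3 without its replicate 2 and 10 with plain totals, so both depend on these choices. The inguinal lymph node count was 3 without its replicate 4. A gene with no read in another tissue and few in the tissue tested has no finite contrast and cannot be called. This was so for 10 of the 32 in lung and in female reproductive tract, and for 9 in colon and in spleen. It was so for 8 in each lymph node, 7 in brain and at most 5, in bone marrow, elsewhere. A gene without a call is thus not always a tested negative.

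Calls below 5 CPM outside liver were all of genes whose mean was highest in liver, apart from Procr in female reproductive tract (4.64 CPM). A gauge of 10 hepatocyte markers stood at 0.037% to 0.045% of its liver level in kidney libraries, 0.022% to 0.092% in blood and 0.027% to 0.125% in heart, and at 0 in lung. Reads of Alb, the gene of serum albumin, reached 21 to 33.3 CPM in kidney and 23.6 to 95.2 CPM in heart, against 90578 to 103070 CPM in liver. The libraries of blood, bone marrow, brain, heart, kidney and small intestine carried 10.4 to 96.3 CPM of Alb and at most 1.13 CPM of the lung gene Scgb1a1. The libraries of the other tissues outside liver and lung carried 0 to 19.3 CPM of Alb and 0.848 to 64.4 CPM of Scgb1a1. Traces of Alb and Scgb1a1 thus divided these tissues in a way that the labels do not name, although the ranges of both genes overlapped. Low reads of the hepatic genes did not all follow this division, and its part in the trace calls was not tested.

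Fibrinogen, the precursor of fibrin, is a complex of chains encoded by Fga, Fgb and Fgg, which lie together on chromosome 3 (GRCm38, GENCODE annotation). Fgg is at chr3:83007724-83015049, Fga at chr3:83026076-83033627 and Fgb, on the opposite strand, at chr3:83040141-83049863. The liver libraries read 4698, 4567, 5649 and 5793 CPM of Fga, a mean of 5177 ± 633 (SD, n = 4). Fgb read 8418, 8347, 9606 and 11055 CPM in liver, a mean of 9357 ± 1271 (SD, n = 4). Fgg read 4653, 4327, 5006 and 4996 CPM in liver, a mean of 4746 ± 324 (SD, n = 4). In all 3 genes liver replicates 3 and 4 lay above replicates 1 and 2. Liver held 99.5% of the summed tissue means of Fga, 99.8% of Fgb and 99.5% of Fgg.

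The tissue next to liver was kidney for all 3. Fga read 16, 17.5, 17.9 and 16.1 CPM in kidney, 0.326% of its liver mean, in libraries whose hepatocyte gauge was 0.037% to 0.045%. Kidney levels of Fgb (0.064% of its liver mean) and Fgg (0.179%) were nearer the gauge. For Fga the log2 difference of liver over kidney was 8.26 ± 0.27 (SE, adjusted p = 6.55e-28), and kidney exceeded blood, the tissue after it, by 3.14 ± 0.39 (adjusted p = 2.41e-09). The kidney libraries were thus alike in Fga, and each lay above the library of blood with the most, 7.67 CPM.

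The promoter stretches of these 3 neighbours, 250 bases before to 50 after the RefSeq start on GRCm38.p6, are shown because the genes share one tissue. Capitals mark letters that match GTTAAT, a core of the site of hepatocyte nuclear factor 1, or TTGCNNAA, a core of the C/EBP site, on either strand.
Fga (chr3:83025903-83026202, plus strand): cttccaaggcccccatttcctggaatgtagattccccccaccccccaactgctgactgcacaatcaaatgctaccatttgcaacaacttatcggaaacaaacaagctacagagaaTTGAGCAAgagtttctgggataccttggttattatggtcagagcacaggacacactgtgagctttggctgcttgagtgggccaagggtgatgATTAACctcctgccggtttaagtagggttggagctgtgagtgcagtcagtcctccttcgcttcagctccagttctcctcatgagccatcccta
Fgb (chr3:83049814-83050113, minus strand): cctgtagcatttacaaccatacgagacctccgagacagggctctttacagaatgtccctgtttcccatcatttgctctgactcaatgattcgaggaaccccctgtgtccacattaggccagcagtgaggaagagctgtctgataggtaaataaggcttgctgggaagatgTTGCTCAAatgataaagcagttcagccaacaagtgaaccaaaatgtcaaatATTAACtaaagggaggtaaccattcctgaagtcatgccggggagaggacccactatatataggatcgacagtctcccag
Fgg (chr3:83007474-83007773, plus strand): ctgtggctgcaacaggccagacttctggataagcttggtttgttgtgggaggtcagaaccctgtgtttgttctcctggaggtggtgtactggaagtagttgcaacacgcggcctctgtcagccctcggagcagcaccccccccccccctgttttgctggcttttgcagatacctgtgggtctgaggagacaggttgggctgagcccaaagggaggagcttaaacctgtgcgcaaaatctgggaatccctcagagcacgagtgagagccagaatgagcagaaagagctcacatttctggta
Fga held an HNF1 core at base -43 and a C/EBP core at -135 from the start, counted to the first base of the match, and Fgb held the same pair at -29 and -80. Fgg held neither in this window. Between pairs of these stretches 47.9% to 50.6% of aligned positions were identical, so the shared tissue was not matched by close similarity of sequence.

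Such cores were searched on both strands in the promoters of 26 members that RefSeq's table lists. Of the 12 listed genes with at least 90% of their RNA in liver, 7 (58.3%) held TTGCNNAA and 3 (25%) held GTTAAT. Of the 14 other listed members, 4 (28.6%) held each of them. The 4 with GTTAAT were F13b, Habp2, Proz and Tfpi2, all highest in liver by mean though under the 90% share. The 4 with TTGCNNAA were Habp2 and Kng2, also highest in liver, and Plaur and Procr, highest elsewhere. None of the listed genes highest outside liver (F3, F8, F13a1, Plaur, Pros1, Procr and Tfpi) held GTTAAT. They are too few for this absence to differ from the 7.2% of all promoters that hold it. Over 27025 promoters of the same length the shares were 10.8% for TTGCNNAA and 7.2% for GTTAAT. AAAGTCCA, a core of the hepatocyte nuclear factor 4 site, was in none of the 26 and in 1.25% of all promoters. At least 1 of the 3 cores was present in 8 of the 12, in 7 of the 14 and in 18% of all promoters, and a match of letters is a description, not a site of binding.

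The vitamin K dependent serine proteases carry carboxylated glutamates by which they bind membranes. F2, which encodes prothrombin, read 2357, 2242, 2264 and 2431 CPM in liver (mean 2324 ± 87.3, SD, n = 4), and liver held 99.6% of its summed means. F9, the gene of factor IX, whose loss causes haemophilia B, read 336, 331, 327 and 312 CPM in liver (mean 326 ± 10.3), with 98.7% of its summed means there and 1.15 CPM in blood, the next tissue. The liver libraries differed little from each other in both, and no other tissue reached 5 CPM of either. F2 exceeded blood, its next tissue, by a log2 difference of 9.69 ± 0.26 (adjusted p = 9.76e-40).

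F7 encodes factor VII, the partner of tissue factor. It read 285, 273, 233 and 244 CPM in liver, a mean of 259 ± 24.1 (SD, n = 4). Lung was next with 23.6, 20.9, 19.9 and 6.85 CPM, a mean of 17.8 ± 7.46, and outside liver only blood replicate 3 (13.6 CPM) exceeded the lowest lung library. Liver exceeded lung by a log2 difference of 3.86 ± 0.37 (adjusted p = 9.64e-13) and lung exceeded blood by 1.91 ± 0.49 (adjusted p = 0.000833). The hepatocyte gauge, a median, was at 0 in all 4 lung libraries. The 10 hepatocyte markers summed to 115 to 122 CPM there, of which Trf, the transferrin gene, made up 114 to 119 CPM, and none of the other 9 exceeded 1.74 CPM in a lung library.

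F10, the gene of factor X, ends the extrinsic branch and lies 1498 bases downstream of F7 on chromosome 8 (F7 at chr8:13026034-13035809, F10 at chr8:13037308-13056676). Liver read 886, 913, 978 and 991 CPM of F10, a mean of 942 ± 50.5 (SD, n = 4). Blood read 34.1, 21.7, 63.5 and 37.7 CPM and bone marrow 26.8, 34.1, 38.9 and 34.3 CPM. These are 4.17% and 3.56% of the liver mean, where the hepatocyte gauge stood at 0.043% and 0.021%. Blood and bone marrow did not differ beyond their spread (log2 difference 0.25 ± 0.26, adjusted p = 0.459), and bone marrow exceeded lung by 2.44 ± 0.38 (adjusted p = 3.84e-07). In the last 500 bases of F10 transcripts 2.33% of 50-base words occur in other genes, so a small part of its reads could have been assigned elsewhere or not at all.

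Proz, the gene of protein Z, a cofactor in the inhibition of factor X, follows F10 on the same strand at chr8:13060914-13076026. It read 342, 317, 324 and 288 CPM in liver (mean 318 ± 22.6, SD, n = 4) and 11.1, 5.67, 10.8 and 16.3 CPM in small intestine. Liver exceeded small intestine by a log2 difference of 4.88 ± 0.24 (adjusted p = 1.5e-27). Reads of Proz appeared in all 15 tissues, and liver held 86.4% of the summed means, less than for its neighbours F7 (91.3%) and F10 (91.4%).

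Proc encodes protein C, the protease that inactivates factors V and VIII. Liver read 715, 631, 769 and 702 CPM, a mean of 704 ± 56.6 (SD, n = 4). Kidney read 61, 62.3, 74.4 and 73.3 CPM, a mean of 67.8 ± 7.08, which is 9.62% of the liver level. Kidney stood well above colon, the third tissue, by a log2 difference of 3.82 ± 0.38 (adjusted p = 1.73e-11), and below liver by 3.38 ± 0.23 (adjusted p = 2.36e-16). All 4 kidney libraries exceeded 10 times the hepatocyte gauge of the same library.

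Pros1, which encodes protein S, the cofactor of protein C, was the one vitamin K dependent gene without a hepatic lead. Lung read 61.7, 53.1, 68.9 and 76.8 CPM, skin 55.7, 46.7, 48.0 and 52.9 CPM and liver 41.7, 41.3, 58.5 and 56.5 CPM. These overlapped, and neither lung and skin (log2 difference 0.36 ± 0.19, adjusted p = 0.112) nor lung and liver (0.40 ± 0.20, adjusted p = 0.0839) differed beyond their spread. All 15 tissue means lay at 5 CPM or above, with the lowest in brain (5.72 CPM), which lung exceeded by 3.5 ± 0.24 (adjusted p = 5.6e-21). Its closest marker list was the hepatic stellate one (Spearman's rho 0.56), which also had a mean sum of 348 CPM in blood. Pros1 was nevertheless called higher in liver than the mean of the other 14.

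The contact system starts coagulation on surfaces and releases bradykinin from kininogen. F12, the gene of factor XII, read 737, 701, 730 and 657 CPM in liver (mean 706 ± 36.6, SD, n = 4) and at most 1.01 CPM on average elsewhere, in blood. F11 (factor XI) read 92.3, 73.2, 93.8 and 94.0 CPM in liver, and 7 tissues had no read of it, while female reproductive tract, the next tissue by mean, had 1 read. Klkb1, the gene of plasma prekallikrein, read 404, 399, 506 and 498 CPM in liver and 4.28 ± 2.01 CPM in kidney. F11 (chr8:45241174-45262031) and Klkb1 (chr8:45266689-45294859) are 4657 bases apart on one strand, and liver held 99.1% and 98.0% of their summed means. All 3 had a mean under 5 CPM in every tissue but liver. Exons of Klkb1 overlap Gm45753, a protein-coding gene on the same strand with no read, so some reads of Klkb1 may not have been counted.

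Of the kininogens, the precursors of bradykinin, Kng2 was the exception in this group. Kng1 and Kng2, both high in liver, lie 28382 bases apart on chromosome 16 with Hrg beside them, Kng2 at chr16:22985854-23029482 on the minus strand and Kng1 at chr16:23057865-23082078 on the plus strand. Kng1 read 2716, 2492, 2714 and 2671 CPM in liver (mean 2648 ± 106, SD, n = 4), 3.12 CPM in bone marrow, the next tissue, and 1.91 CPM in kidney. Liver exceeded kidney by a log2 difference of 10.39 ± 0.25 (adjusted p = 1.57e-37). Kng2 read 366, 330, 350 and 327 CPM in liver (mean 343 ± 18.1) and 289, 305, 330 and 260 CPM in kidney (mean 296 ± 29.4). For Kng2 the liver and kidney libraries overlapped, with a log2 difference of 0.21 ± 0.14 (adjusted p = 0.23) that turned to -0.37 (adjusted p = 0.0308) with plain library totals. Kng2 in kidney exceeded bone marrow, the third tissue, by 6.83 ± 0.23 (adjusted p = 8.68e-35). In the last 500 bases, 10.7% of the 50-base words of Kng1 transcripts and 17.3% of those of Kng2 occur in the other gene, so counting could have lost or moved some reads between the pair.

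F13b, Habp2, Proc and Tfpi2 were also found in kidney beside liver. F13b encodes the carrier subunit of factor XIII and lies at chr1:139501702-139523752. It read 252, 236, 327 and 252 CPM in liver (mean 267 ± 40.6, SD, n = 4) and 100, 90.3, 112 and 97.6 CPM in kidney (mean 99.9 ± 8.85), with no other tissue above 0.537 CPM. Liver exceeded kidney by a log2 difference of 1.42 ± 0.17 (adjusted p = 1.67e-09), or by 0.84 with plain totals, which is under the log2 threshold of 1. Kidney exceeded heart, the third tissue, by 7.45 ± 0.36 (adjusted p = 1.21e-22).

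Habp2 encodes a protease of plasma that binds hyaluronan and is known to activate factor VII and urokinase, and it lies at chr19:56287137-56320822. It read 234, 242, 217 and 247 CPM in liver (mean 235 ± 13.1, SD, n = 4), 102, 118, 102 and 113 CPM in kidney (mean 109 ± 8.08) and 30.5, 47.5, 33.1 and 27.7 CPM in small intestine (mean 34.7 ± 8.82). The 3 tissues did not overlap. Liver exceeded kidney by 1.11 ± 0.16 (adjusted p = 8.05e-08) on the log2 scale, or by 0.53 with plain totals, and kidney exceeded small intestine by 1.64 ± 0.18 (adjusted p = 1.47e-11). Habp2 overlaps exons of Nrap, a heart muscle gene on the opposite strand with 159 CPM in heart. Habp2 itself read 1.97 CPM in heart, and without a stated strand setting these reads cannot be assigned to either gene.

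Tfpi2 encodes an inhibitor of plasmin and of the tissue factor complex that is related to tissue factor pathway inhibitor. It read 96.3, 107, 83.8 and 66.1 CPM in liver (mean 88.2 ± 17.4, SD, n = 4), 15.3, 15.0, 17.9 and 23.9 CPM in kidney and 6.32 ± 1.68 CPM in colon. Liver exceeded kidney by 2.29 ± 0.26 (adjusted p = 3.39e-11) and kidney exceeded colon by 1.49 ± 0.36 (adjusted p = 0.000382), both on the log2 scale. Across the 15 tissue means Tfpi2 followed the hepatic stellate marker list most closely, with Spearman's rho of 0.88, against 0.58 for the endothelial list. That correlation is a description over 15 points that share scaling and depth. The stellate list had a mean sum of 544 CPM in liver, but also 348 CPM in blood, where Tfpi2 had no read, and 259 CPM in skin. It is thus not particular to stellate cells here, and the source of Tfpi2 was not tested.

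The promoters of F13b, Habp2 and Kng2 are shown because these genes share liver and kidney, in the same form and with the same capitals as for fibrinogen.
F13b (chr1:139501457-139501756, plus strand): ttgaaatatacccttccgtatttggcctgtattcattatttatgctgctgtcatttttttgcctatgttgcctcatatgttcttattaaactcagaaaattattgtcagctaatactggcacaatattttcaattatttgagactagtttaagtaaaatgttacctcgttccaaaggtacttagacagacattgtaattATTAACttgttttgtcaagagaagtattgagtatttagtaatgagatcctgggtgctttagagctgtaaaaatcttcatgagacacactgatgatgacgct
Habp2 (chr19:56287662-56287961, plus strand): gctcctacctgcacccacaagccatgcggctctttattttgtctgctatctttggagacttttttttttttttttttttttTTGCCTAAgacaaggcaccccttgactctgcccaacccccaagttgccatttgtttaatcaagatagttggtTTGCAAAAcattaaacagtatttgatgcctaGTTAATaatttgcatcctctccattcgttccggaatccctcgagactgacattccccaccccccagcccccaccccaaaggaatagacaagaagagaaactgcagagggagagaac
Kng2 (chr16:23029052-23029351, minus strand): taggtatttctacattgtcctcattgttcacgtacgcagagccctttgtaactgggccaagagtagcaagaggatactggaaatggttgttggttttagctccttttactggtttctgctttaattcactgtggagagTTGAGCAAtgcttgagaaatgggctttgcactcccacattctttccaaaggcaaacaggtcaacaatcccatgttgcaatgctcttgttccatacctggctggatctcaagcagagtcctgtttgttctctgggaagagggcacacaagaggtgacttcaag
An HNF1 core stood at -51 in F13b and at -66 in Habp2, and not in Kng2. A C/EBP core stood at -169 and -97 in Habp2 and at -112 in Kng2. The windows of Habp2 and Kng2 lie wholly within the GENCODE spans of these genes. Their RefSeq starts are thus downstream of the outermost GENCODE starts, and the positions hold for the RefSeq starts only. Over 339 aligned columns F13b and Habp2 were identical at 49.9%. Unrelated promoters were not aligned, so neither this share nor those between the fibrinogen promoters can be read as relatedness.

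**Figure D2:**
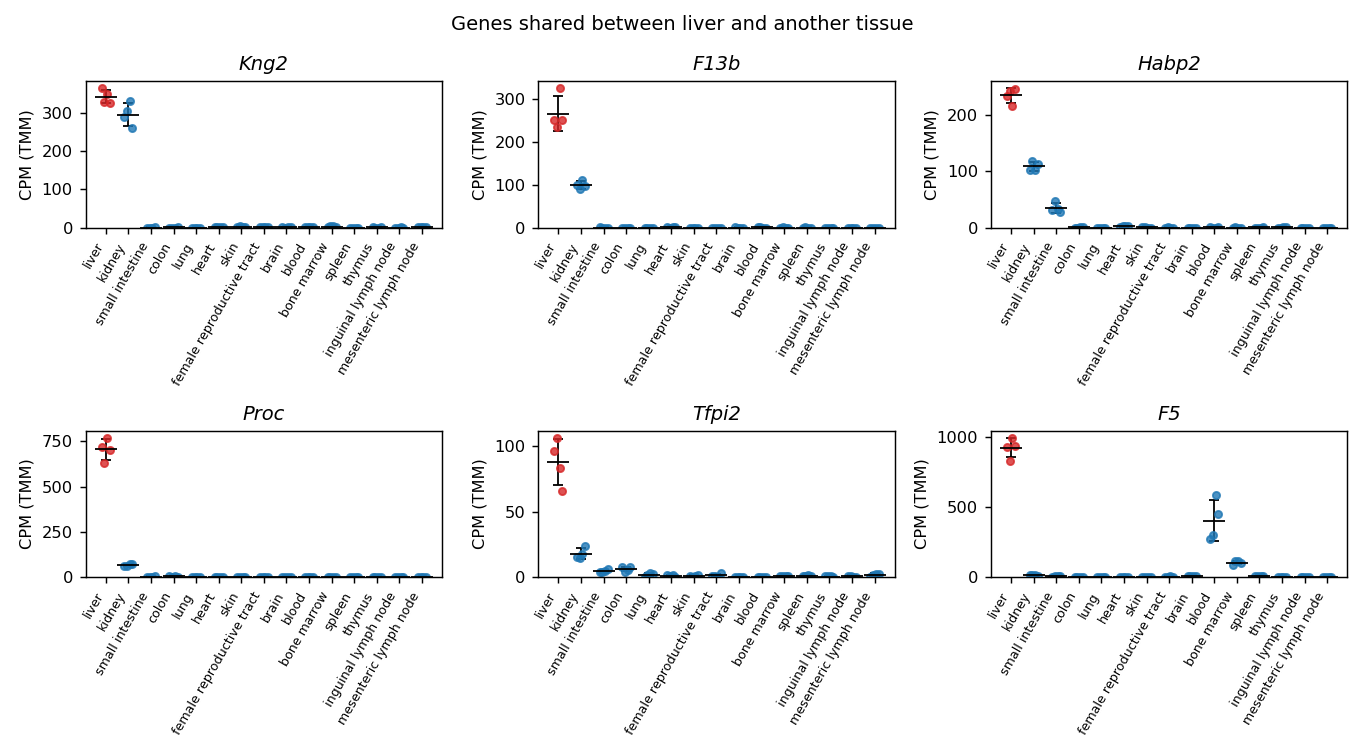
CPM of Kng2, F13b, Habp2, Proc, Tfpi2 and F5 in each of the 60 libraries (points, liver in red), with the mean (bar) and SD (whiskers) of each tissue's 4 libraries. Kng2 has a mean of 343 in liver and 296 in kidney, a difference whose sign depends on the scaling, and F5 shows a second high group of points in blood (274 to 588).

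Set beside the hepatocyte gauge, kidney separated the hepatic genes into a wide range. Kng2 reached 86.3% of its liver mean, Habp2 46.3%, F13b 37.5%, Tfpi2 20.5% and Proc 9.62%, all at least 10 times the gauge in each of the 4 kidney libraries. F5 (1.63%) and Proz (1.22%) did so too at low levels. F2 (0.015%), F9 (0.026%) and Hrg (0.035%) lay at or under the gauge mean of 0.040%, and Plg and F12 had no read in kidney. Genes of one pathway, and neighbours such as Hrg, Kng2 and Kng1, therefore differed by orders of magnitude in their kidney share.

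**Figure D3:**
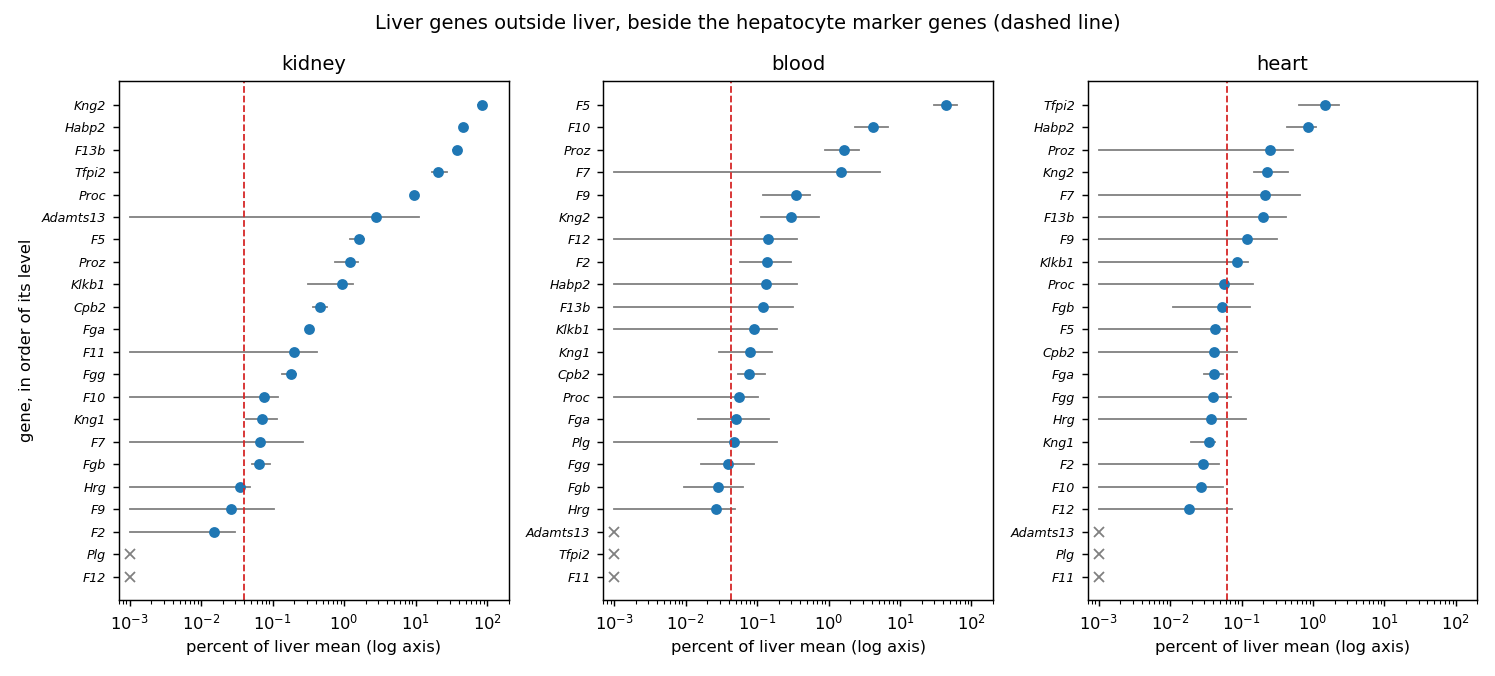
Level of each of the 22 genes that are highest in liver, as a percent of its liver mean (log axis), in kidney, blood and heart. Points are means and lines span the 4 libraries, running to the left edge where a library had no read; crosses mark genes with no read, and the dashed line is the mean of the gauge of 10 hepatocyte markers. In kidney Kng2, Habp2, F13b, Tfpi2 and Proc lie far to the right of the line, in blood F5 and F10, and in heart no gene exceeds 5%.

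F5 encodes factor V, the cofactor of factor X, which is known to be stored in platelets as well as to circulate in plasma. The liver libraries read 931, 832, 996 and 935 CPM (mean 924 ± 68.0, SD, n = 4), blood read 274, 299, 588 and 448 CPM (mean 403 ± 146) and bone marrow read 89.1, 114, 113 and 102 CPM (mean 104.6 ± 11.6). The 3 tissues did not overlap. Liver exceeded blood by a log2 difference of 1.19 ± 0.16 (adjusted p = 7.55e-10) with TMM scaling, but by 0.014 (adjusted p = 0.982) with plain library totals, so the order of liver and blood rests on the scaling. Blood exceeded bone marrow by 1.95 ± 0.16 (adjusted p = 3.79e-16) and bone marrow exceeded spleen by 3.43 ± 0.20 (adjusted p = 6.98e-23). Pf4, the platelet factor 4 gene, read 2076, 1855, 2921 and 2458 CPM in the same blood libraries, and the blood replicates with the most Pf4, 3 and 4, also had the most F5. Pf4 was picked after its values were seen, and over the 15 tissue means F5 did not follow the megakaryocyte and platelet list (Spearman's rho 0.14), the closest lists being the erythroid (0.51) and hepatocyte (0.41) ones. Exons of F5 overlap Gm16548, a noncoding gene on the opposite strand with 24.9 CPM in liver.

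F8 encodes factor VIII, whose loss causes haemophilia A, and lies at chrX:75172715-75382615. Mesenteric lymph node read 204, 196, 157 and 106 CPM, a mean of 166 ± 45.0 (SD, n = 4). Liver read 91.6, 83.4, 86.5 and 62.4 CPM (mean 80.9 ± 12.8) and inguinal lymph node 79.8, 56.1, 56 and 35.1 CPM (mean 56.8 ± 18.3). Every mesenteric lymph node library lay above every liver library, whereas the inguinal and liver libraries overlapped. Mesenteric lymph node exceeded liver by a log2 difference of 1.03 ± 0.19 (adjusted p = 3.38e-06), close to the threshold of 1, which it missed at 0.97 without mesenteric replicate 1 or 2 and at 0.96 without the 6 libraries that stood apart. It exceeded inguinal lymph node by 1.53 ± 0.18 (adjusted p = 4.68e-09), and the inguinal node lay under liver by 0.50 ± 0.19 (adjusted p = 0.0195), which is not a call. Kidney (17.6 ± 2.68 CPM) and spleen (11.7 ± 1.79 CPM) followed.

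Over the 15 tissue means F8 followed the sinusoidal endothelial list (Stab2, Clec4g, Oit3, Lyve1 and Gpr182) most closely among the marker lists, with Spearman's rho of 0.58. Stab2, a scavenger receptor of sinusoidal endothelium picked after its values were seen, read 120, 126, 111 and 78.0 CPM in mesenteric lymph node and 63.9, 47.8, 48.6 and 29.1 CPM in inguinal lymph node. In both nodes replicate 4 was the lowest for Stab2 and for F8. Spleen read 126 to 157 CPM of Stab2 and only 10.2 to 14.2 CPM of F8, and liver 95.1 to 117 CPM of Stab2. Tissues alike in Stab2 thus differed in F8, but they were not alike in the whole list. Its mean sum was 575 CPM in mesenteric lymph node, 332 in liver, 182 in inguinal lymph node and 169 in spleen, the order of F8. Lung (238 CPM) and kidney (15.9 CPM) departed from that order. The source of F8 was not tested. Lung, with the highest sum of the endothelial markers, read 0.78 CPM of F8, less than liver by a log2 difference of 6.63 ± 0.42 (adjusted p = 3.17e-22).

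**Figure D4:**
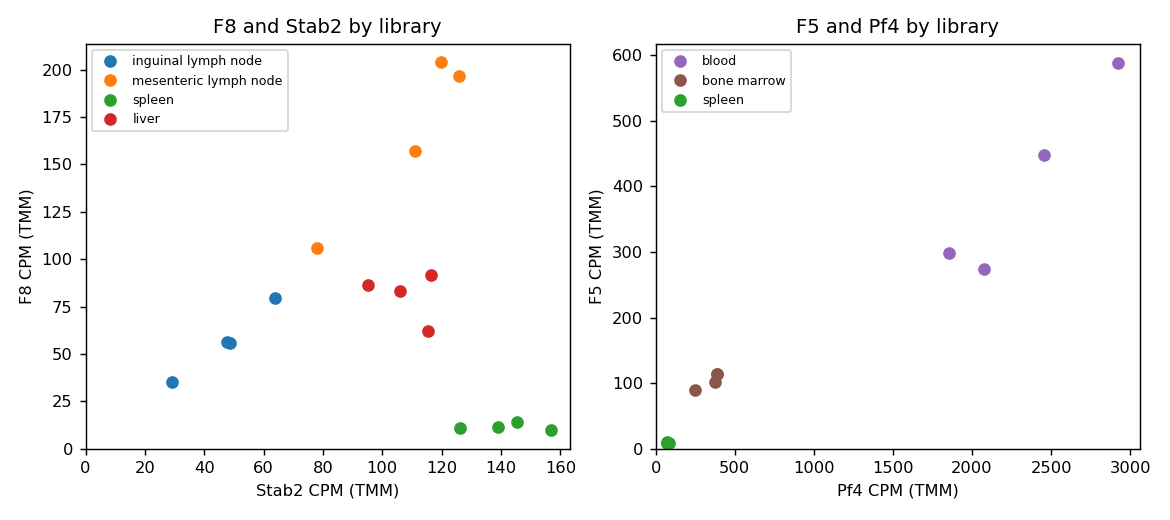
Left, CPM of F8 against Stab2 in the libraries of both lymph nodes, spleen and liver; right, CPM of F5 against Pf4 in those of blood, bone marrow and spleen; each point is 1 library. At Stab2 levels near 100 to 157 CPM, F8 is 157 to 204 in mesenteric lymph node, 62.4 to 91.6 in liver and 10.2 to 14.2 in spleen; F5 is highest in the blood libraries, which also have the most Pf4.

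F13a1 encodes the catalytic transglutaminase subunit of factor XIII, known from platelets and macrophages, and its tissues did not match those of its partner F13b. Bone marrow read 205, 206, 184 and 213 CPM (mean 202 ± 12.2, SD, n = 4), blood 136, 119, 171 and 149 CPM, and skin 200, 64.4, 128 and 171 CPM. Thymus followed with 72.2 ± 7.30 CPM and heart with 51.6 ± 8.16 CPM. The libraries of bone marrow lay above those of blood, but the log2 difference of 0.48 ± 0.24 did not pass (adjusted p = 0.102), nor did that of bone marrow over skin (0.52 ± 0.24, adjusted p = 0.0586). Liver, where F13b was highest, had 0.50 CPM of F13a1, less than bone marrow by 8.47 ± 0.53 (adjusted p = 1.16e-19). The closest list to F13a1 was the megakaryocyte and platelet one (Spearman's rho 0.59), followed by the thymocyte list (0.56).

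Vwf encodes von Willebrand factor, which tethers platelets and carries factor VIII. Blood read 308, 281, 366 and 384 CPM (mean 335 ± 48.8, SD, n = 4) and lung 191, 167, 176 and 196 CPM (mean 182 ± 13.2), without overlap. The log2 difference of blood over lung was 0.88 ± 0.19 (adjusted p = 3.81e-05), which is past the p but not the size threshold. Lung exceeded heart (53.6 ± 7.29 CPM) by 1.76 ± 0.20 (adjusted p = 3.06e-11), and heart and bone marrow (50.1 ± 5.01 CPM) did not differ beyond their spread (0.10 ± 0.21, adjusted p = 0.72). Among the marker lists Vwf followed the megakaryocyte and platelet list most closely over the 15 tissues (Spearman's rho 0.83). That list summed to 4705 to 7253 CPM in blood and to 14.8 to 37.4 CPM in lung, so lung had the second highest Vwf level with little platelet RNA. Vwf and its cargo F8 were apart: blood, with the most Vwf, read 0.80 CPM of F8, and mesenteric lymph node, with the most F8, read 17.6 CPM of Vwf.

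Thbd encodes thrombomodulin, the endothelial receptor that turns thrombin towards protein C. Lung read 450, 542, 593 and 734 CPM (mean 580 ± 119, SD, n = 4). The next tissues, female reproductive tract (41.9 ± 12.3 CPM) and heart (41.8 ± 15.3 CPM), lay far below every lung library, and lung exceeded female reproductive tract by a log2 difference of 3.72 ± 0.24 (adjusted p = 6.56e-19). Lung held 66.6% of the summed means of Thbd. The 9 endothelial markers summed to 2190 to 2616 CPM in lung and 1114 to 1180 CPM in heart, a smaller ratio between these tissues than that of Thbd. Liver read 7.05 CPM of Thbd, less than lung by 6.36 ± 0.31 (adjusted p = 8.46e-25). Over the 15 tissues the smooth muscle list (Spearman's rho 0.725) and the fibroblast list (0.721) were closer to Thbd than the endothelial one (0.63).

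Procr, the gene of the endothelial protein C receptor, had a different order from Thbd although both proteins serve the activation of protein C. It read 29.8, 23.5, 26 and 17.1 CPM in inguinal lymph node and 18.1, 22.6, 17.3 and 19.2 CPM in mesenteric lymph node, which overlapped (log2 difference 0.33 ± 0.22, adjusted p = 0.299). Colon, spleen and skin followed at 10.5, 10.5 and 9.45 CPM, lung had 4.74 CPM and blood no read. Inguinal lymph node exceeded liver by 4.72 ± 0.43 (adjusted p = 3.51e-15). The smooth muscle list was closest to Procr over the 15 tissues (Spearman's rho 0.65), against 0.40 for the endothelial list.

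F3 encodes tissue factor, which starts coagulation and is known from cells around vessels and at body surfaces. Skin read 86.8, 103, 92.6 and 85.1 CPM (mean 92.0 ± 8.30, SD, n = 4). Female reproductive tract read 45.3, 80.1, 10.4 and 124 CPM, the widest spread of any tissue, and its lowest library is replicate 3, the shallowest of the series. Skin and female reproductive tract did not differ beyond this spread (log2 difference 0.42 ± 0.24, adjusted p = 0.159), and skin exceeded lung (42.1 ± 6.86 CPM) by 1.13 ± 0.26 (adjusted p = 0.00019). Colon (32.8 ± 10.1 CPM), brain (27.7 ± 1.34 CPM) and heart (20.1 ± 2.98 CPM) came next, and brain exceeded liver by 2.97 ± 0.41 (adjusted p = 5.78e-09). Blood had 0.10 CPM of F3, below skin by 9.15 ± 0.57 (adjusted p = 3.85e-21). Over the 15 tissues F3 followed the fibroblast list most closely (Spearman's rho 0.80).

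Tfpi encodes tissue factor pathway inhibitor, which shuts off the tissue factor complex. Heart read 63.6, 79.2, 93.3 and 86.2 CPM (mean 80.6 ± 12.7, SD, n = 4), above every other library, and lung read 33.3, 30.5, 27.8 and 26.6 CPM. Heart exceeded lung by a log2 difference of 1.45 ± 0.23 (adjusted p = 1.67e-07) with TMM scaling, but the difference was -0.17 (adjusted p = 0.571) with plain library totals, so the lead of heart depends on the scaling. Lung and spleen (27.5 ± 4.66 CPM) did not differ beyond their spread (0.10 ± 0.24, adjusted p = 0.771). Over the 15 tissues its closest marker lists were the endothelial and smooth muscle ones, alike at a Spearman's rho of 0.73. Tfpi and Tfpi2, a related pair of inhibitors, had different orders, with Tfpi at 13.1 CPM in liver where Tfpi2 was highest.

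Adamts13 encodes the protease that cuts von Willebrand factor. It read 4.04, 2.17, 4.66 and 1.47 CPM in liver, and its mean was at most 0.76 CPM elsewhere, so it was too low to be tested. In the last 500 bases of its transcripts 16.2% of the 50-base words occur in other genes, so some of its reads may not have been counted. Vwf in turn was low in liver, at 7.23 CPM.

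**Figure D5:**
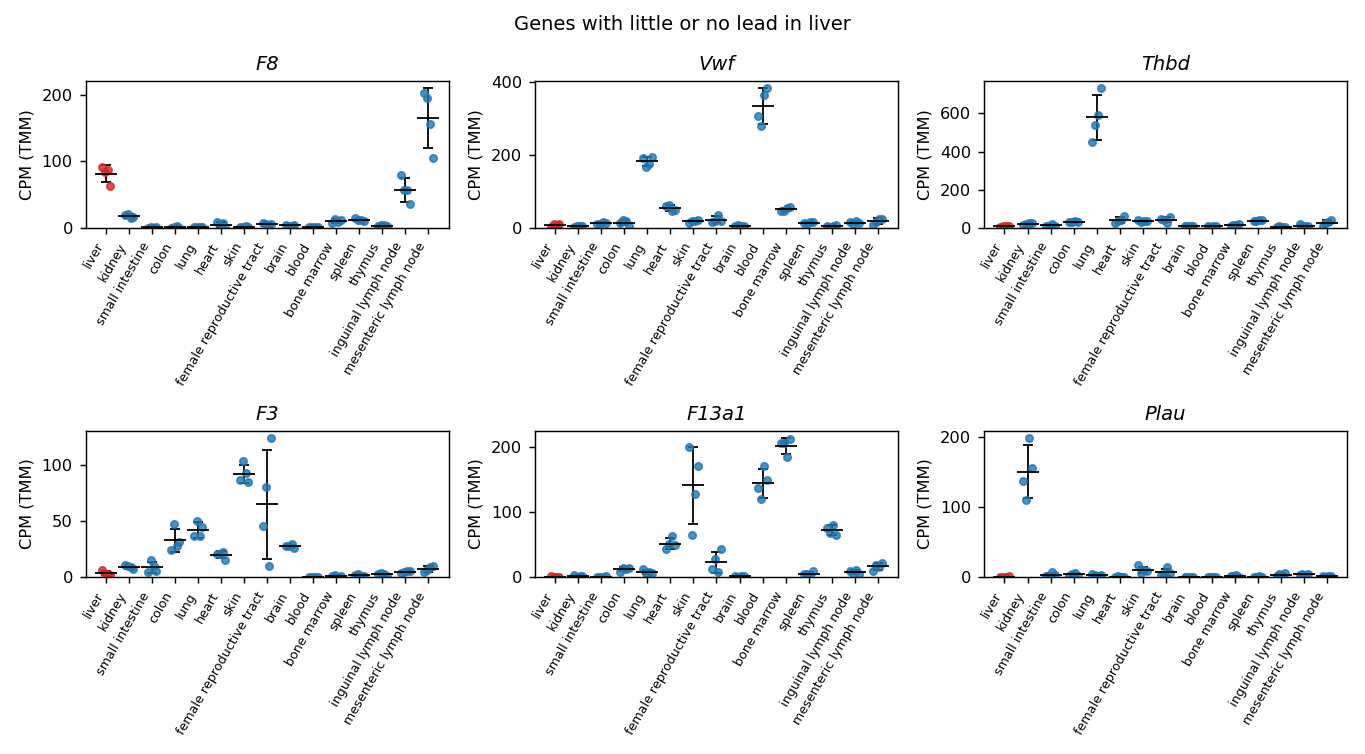
CPM of F8, Vwf, Thbd, F3, F13a1 and Plau in each of the 60 libraries (points, liver in red), with the mean (bar) and SD (whiskers) of each tissue's 4 libraries. The points of lung stand alone for Thbd (450 to 734), those of kidney for Plau (111 to 199), and those of mesenteric lymph node (106 to 204) lie above liver for F8.

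Plasminogen and its activators divided by tissue. Plg, the gene of plasminogen, read 238, 218, 242 and 243 CPM in liver (mean 235 ± 11.7, SD, n = 4), 99.7% of its summed means, and 10 tissues had no read of it, while female reproductive tract, the next tissue by mean, had 1 read. Plau, the gene of urokinase, which is known as a product of kidney tubules, read 137, 111, 199 and 156 CPM in kidney (mean 151 ± 37.2). Skin, next, read 16.9, 6.67, 10.5 and 9.45 CPM, and kidney exceeded it by a log2 difference of 3.77 ± 0.25 (adjusted p = 4.21e-21). Liver had 0.70 CPM of Plau, so the zymogen and this activator were highest in different organs. Over the 15 tissues Plau did not follow the kidney tubule list (Spearman's rho -0.32), and the adipocyte list was closest (0.78). The tubule list, like Plau, was highest in kidney, with a mean sum of 7313 CPM, and had at most 54.6 CPM elsewhere, in lung. Its ranks outside kidney rest on low sums, so this rho cannot tell the source of Plau, which was not tested. Exons of Plg overlap Slc22a3 on the opposite strand, which read 11.1 CPM in liver.

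Plat encodes tissue plasminogen activator, known from endothelium and neurons. Female reproductive tract read 85.8, 73.1, 31.1 and 43.4 CPM, kidney 51.8, 51.8, 50.7 and 50.5 CPM, lung 22.7, 41.8, 44.4 and 50.2 CPM and brain 23, 35.8, 35.2 and 24.3 CPM. The libraries of female reproductive tract overlapped those of the other 3, whereas every kidney library lay above every lung and brain library, by a small margin over lung. Female reproductive tract exceeded kidney by 0.31 ± 0.28 on the log2 scale (adjusted p = 0.366), or by 1.16 (adjusted p = 0.000502) with plain library totals. The difference of kidney over lung (0.36 ± 0.30, adjusted p = 0.32) did not pass either. Liver had 1.41 CPM of Plat, below kidney by 5.15 ± 0.53 (adjusted p = 4.83e-12), and bone marrow had no read. The ovary list was closest to Plat over the 15 tissues (Spearman's rho 0.78). That list had a mean sum of 190 CPM in female reproductive tract, 19.4 CPM in brain and at most 9.16 CPM elsewhere, in heart. Most of its ranks thus rest on low values.

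Plaur encodes the urokinase receptor, known from myeloid cells. It read 118, 59.9, 90.8 and 74.7 CPM in blood, 77.9, 66.9, 69.2 and 63.9 CPM in bone marrow and 42.2, 73.1, 77.5 and 64.7 CPM in lung. These 3 tissues overlapped, and neither blood over bone marrow (log2 difference 0.28 ± 0.19, adjusted p = 0.239) nor bone marrow over lung (0.11 ± 0.20, adjusted p = 0.686) passed. Kidney, where the ligand gene Plau was highest, had 5.57 CPM of the receptor. The B cell list (Spearman's rho 0.725) and the megakaryocyte and platelet list (0.69) were closest to Plaur. Of the myeloid lists, the neutrophil one came next (0.65) and the macrophage one was at 0.225.

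Cpb2 and Hrg act on the clot from plasma. Cpb2, whose product removes the lysines by which plasminogen binds fibrin, read 672, 698, 641 and 628 CPM in liver (mean 660 ± 31.6, SD, n = 4) and 2.99 ± 0.677 CPM in kidney. Hrg, the gene of histidine-rich glycoprotein, read 1708, 1525, 1387 and 1266 CPM in liver (mean 1471 ± 190), 99.8% of its summed means, with colon next at 0.708 CPM. No tissue but liver reached 5 CPM of either, and liver exceeded kidney in Cpb2 by a log2 difference of 7.77 ± 0.24 (adjusted p = 7.43e-34).

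Genes that work with these factors were described from lists of the same pathway, to be read against the 18.4% of all genes called higher and the 16.7% called lower in liver. Of 9 tested serpins and related inhibitors, 6 were called higher and 1 lower in liver, with a median log2 ratio of liver to other tissue means of 6.41 against -0.65 for all genes. The 6 were Serpinc1 (antithrombin, 4197 ± 224 CPM in liver), Serpind1 (heparin cofactor II), Serpina10 (the protein Z dependent inhibitor), Serpinf2 (antiplasmin), Serping1 (the C1 inhibitor) and Itih3. Serpine2, an inhibitor of thrombin, was called lower in liver and was highest in brain (156 ± 4.53 CPM).

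Of 7 genes of the vitamin K cycle and of factor secretion, 6 were called higher in liver (median log2 ratio 2.27). They include Ggcx, the carboxylase of the vitamin K dependent factors (89.7 ± 6.95 CPM in liver, 48.6 CPM in lung), Vkorc1, the warfarin target (129 ± 12.4 CPM in liver), and Lman1 and Mcfd2, which carry factors V and VIII out of the endoplasmic reticulum (376 and 244 CPM in liver). Lung read 68.5 CPM of Lman1 and 73.9 CPM of Mcfd2. Of 4 genes of protease-activated receptors, which thrombin or, for F2rl1, trypsin-like proteases activate, 1 was called higher in liver (F2rl2) and 1 lower (F2rl1), a share near that of all genes, with a median log2 ratio of -1.05, and F2r was highest in lung (211 ± 17.6 CPM), as Thbd was. Of 5 genes of plasmin generation at the cell surface, 2 were called higher (Lrp1, Eno1) and 2 lower (Anxa2, Plgrkt) in liver, with a median log2 ratio of 0.22. Of 8 tested platelet adhesion genes none was called higher and 2 were called lower in liver (Itga2 and Thbs1), with a median log2 ratio of -4.49, and all 8 were highest in blood, among them Itga2b (1121 ± 231 CPM) and Gp9 (407 ± 89.4 CPM).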

How the data were processed

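RNA was measured in 60 libraries, 4 replicates of 15 tissues, by multiplexed sequencing of fragmented total RNA primed with barcoded oligo(dT), per the labels' protocols, so reads lie near transcript 3′ ends. The deposited table holds raw read counts per gene, and FastQC, STAR and featureCounts with the mm10 genome are named in the submitters' processing notes. Neither their versions nor the strand setting is stated, and a gene and an overlapping gene on the other strand cannot be told apart.

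Counts were scaled with TMM and tested with edgeR 4.0.16 (quasi-likelihood F test, robust, two-sided) in R 4.3.3. A filter on low genes (filterByExpr with tissue as the group, minimum count 10, minimum total 15) left 18562 genes. All 15 contrasts of a tissue against the other 14 and all 105 tissue pairs were tested, with Benjamini-Hochberg adjustment over all genes. The contrast with the mean of 14 has no finite value where a gene has no read in another tissue and is low in the tissue tested. This held for Plat and Procr in liver, for which pairs of tissues are given. It also held for 2 (kidney) to 10 (lung) of the 32 genes in each other tissue. Checks of the fit were made on simulated data with known changes.

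The 33 genes, the related lists and the marker lists were chosen with earlier results of these data known. All 33 genes are accounted for, and those with a mean of 5 CPM in any tissue are given with all 4 libraries of their highest tissue and with the next tissue. F8 with Stab2 and F5 with Pf4 were set side by side after the values were seen. Positions are from GENCODE release M21, and promoters from RefSeq (GRCm38.p6), whose table matched 26 of the 33 genes and whose first listed start was used.

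The replicates are described as 4 mice, but the labels do not say that a number marks the same mouse in all tissues. No libraries were identical. The depth of 353605 to 5211133 reads per library limits low genes. Alternatives were DESeq2 1.42.0 size factors and its Wald test, plain library totals, no filter, a replicate block, each replicate left out in turn (with the dispersion trend of the full fit) and, added after seeing the data, leaving out 6 libraries.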

Additional observations from a re-analysis of the deposited data

Results flagged for a closer look

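A library was singled out where, among the 4 of a tissue, the gap between the highest or lowest and its nearest neighbour relative to the whole range was over Dixon's 95% limit. Chance alone singles out about 1 in 20 groups, and 11 of the 154 groups of a gene in a tissue were marked. In colon, F13a1 in replicate 1 was 7.63 CPM, against 13.4 to 14.4 CPM in the others. Plaur in colon replicate 4 was 2.87 CPM, against 9.23 to 10.2 CPM. Thbd in colon replicate 3 was 36.9 CPM, against 26.8 to 27.7 CPM.

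Pros1, the protein S gene, was marked in 4 tissues. It was 12.7 CPM in colon replicate 1 (others 15.9 to 16.5 CPM), 15.7 CPM in kidney replicate 1 (others 20.3 to 21 CPM), 24.9 CPM in small intestine replicate 1 (others 33.5 to 34.4 CPM) and 17.7 CPM in spleen replicate 3 (others 15.2 to 15.6 CPM). Of these 4, 3 were low values in a replicate 1, and whether that number marks a mouse is not stated. Over all 15 tissues replicate 1 had the lowest Pros1 in 6 (blood, bone marrow, colon, kidney, small intestine and spleen) and the highest in 4 (brain, skin and both lymph nodes).

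In liver, F11 in replicate 2 was 73.2 CPM, against 92.3 to 94.0 CPM. In mesenteric lymph node, Tfpi in replicate 4 was 13.9 CPM, against 19.3 to 20.0 CPM, and the same library had the lowest F8. In female reproductive tract replicate 3, the shallowest library, F8 was 2.08 CPM, which is 1 read (others 5.95 to 6.54 CPM). Vwf was 35.3 CPM in that library (others 16.2 to 18.4 CPM).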

How the results depend on the processing

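For each of the 32 tested genes the difference between its highest and next tissue, and the counts of genes called in each tissue, were recomputed under each alternative. DESeq2 size factors, no filter on low counts and the replicate block each left all 32 differences and all counts with the same direction and side of the threshold, counts being taken as the same within 1.5 times. The labels pair the replicates by number only. Deviations of same-numbered libraries had a median correlation of 0.016, against -0.00565 for other numbers, and 48 of 60 libraries correlated best with their own number. Unrelated numbers would give about 1 in 4, so libraries of the same number were weakly alike, and the cause was not tested. The main fit has no replicate block. With the replicate block 23 genes were called higher in liver, as without it. With plain library totals 6 differences changed: Kng2, liver minus kidney, reversed to -0.37, Tfpi, heart minus lung, reversed to -0.17, F13b (0.84), F5 (0.014) and Habp2 (0.53) lost the call, and Plat (1.16) gained it. The counts then were 1 in heart and 10 in female reproductive tract, and the liver split over all genes went from 3414 higher and 3099 lower to 1805 higher and 7495 lower. The count for inguinal lymph node was 3 with the DESeq2 Wald test. Without the 6 libraries that stood apart, heart had 7 and F8, mesenteric lymph node minus liver, 0.96. Leaving out each replicate in turn gave 23 genes called higher in liver each time, 14 to 16 in kidney, 7 to 12 in heart (7 without replicate 4), 3 to 7 in female reproductive tract (3 without replicate 2) and 3 to 5 in inguinal lymph node (3 without replicate 4), and F8, mesenteric lymph node minus liver, lost its call at 0.97 without mesenteric replicate 1 or 2. The cause of these changes was not tested. Low counts limit what can be said of hepatic genes outside liver, where 1 CPM is a few reads.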
